A study of Mus musculus with 9 samples.

Results

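The genes described here are 9 regulators that hold T cells in the naive, resting state, namely Tcf7, Lef1, Satb1, Bach2, Foxo1, Bcl11b, Ets1, Themis and Id3. They were chosen by symbol from the 20926 genes of the deposited expression matrix. Each of the 9 was found once, and each was among the 12382 genes abundant enough to be tested. Blood RNA was sequenced from male DBA/1 mice, labelled as 7 weeks old, with 3 libraries in each of 3 groups. In the paper this is the age at division into groups, before the booster and the irradiation, so it is not the age at sampling. Ctrl mice were healthy and not irradiated. CIA mice carried collagen-induced arthritis, a model of rheumatoid arthritis raised by chick type II collagen in complete Freund's adjuvant followed by a booster in incomplete adjuvant, and received no irradiation. CIA+THz mice were made arthritic in the same way, and their swollen ankle joints were exposed to 0.1 THz waves for 30 min per day over 14 days under isoflurane anaesthesia. No irradiated group without arthritis was analysed here, and the sources do not say that the Ctrl and CIA mice were anaesthetised, so the anaesthesia and the irradiation cannot be told apart.

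A naive T cell has left the thymus but has not yet met its antigen, and it stays small and non-dividing while it circulates between blood and lymph nodes. Tcf7 (which encodes TCF-1) and Lef1 are related HMG-box factors that keep this state, and both are lost when T cells become effector cells. Foxo1 drives the genes for survival and lymph node entry, Bach2 represses effector programmes, Satb1 organises chromatin in T cells, Bcl11b fixes T cell identity, and Ets1 is needed for T cell survival. Themis is not a transcription factor but a signalling protein of the T cell receptor, and Id3 is an inhibitor that binds E proteins and has no DNA-binding region of its own. Bach2, Foxo1 and Ets1 are also expressed by B cells, and Id3 and Lef1 are not limited to T cells either.

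The promoters were examined because several of the members encode factors that bind known short motifs, or, as Id3 does, block factors that bind one. Sequences came from the RefSeq promoter table for GRCm38.p6, which held 17 start sites for 8 of the 9 members. In the 250 bases before each start, the letters CTTTGAA (bound by TCF and LEF factors), CCGGAAG (ETS factors), GTAAACA (FOXO factors), TGANTCA (AP-1 and BACH factors) and CANNTG (the E-box bound by E proteins) were searched on both strands. Over all 32851 windows of this length in the table, CTTTGAA was in 4.46%, CCGGAAG in 6.91%, GTAAACA in 3.17%, TGANTCA in 6.75% and CANNTG in 66.2%. Among the members, CTTTGAA was found in the window of Bcl11b, and CCGGAAG in that of Bach2 and in that of the second listed start of Tcf7. All 3 of these matches lie inside the gene as GENCODE draws it, 89 bases from its 5′ end for Bcl11b (in a 5′ exon outside the coding part), 384 for Tcf7 and 178609 for Bach2 (both intronic), counted to the first printed base. They therefore precede internal starts, and 12 of the 17 windows overlap the GENCODE gene in whole or in part. GTAAACA and TGANTCA had no match in the 17 windows. CANNTG was present in 10 windows from 5 members, at 11 distinct positions, because some windows of Lef1 and Themis overlap and share a match. The first window of Tcf7, which holds one of these E-boxes, lies before the GENCODE gene. It contains an ATG followed by a frame without a stop codon up to the end of the window, and the E-box lies in that frame. This stretch therefore reads like coding sequence of a longer isoform and not like a promoter, although its transcription was not tested. A match of letters is a description of the window only. The 3 matches other than E-boxes are printed with the motif in capitals and up to 10 bases on each side, on the strand of the gene, so that the reverse complement of CCGGAAG reads as CTTCCGG.
Bcl11b, chr12:108003487-108003513, minus strand: aggccaagcaCTTTGAAgaagtgtgag
Tcf7, chr11:52282604-52282630, minus strand: gctggagtcaCTTCCGGtgccctgacc
Bach2, chr4:32417413-32417434, plus strand: cgggctttccCTTCCGGtctag

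The windows of Lef1 and Satb1 are printed whole, because Lef1 had the largest difference of the members between CIA+THz and CIA and Satb1 the largest between CIA and Ctrl. Both lie before the first listed start of the gene, and capitals mark a match to any of the searched motifs. Lef1 had 1 E-box, from 10 to 5 bases before the start, and the window of Satb1 had no match.
Lef1, chr3:131110047-131110296, plus strand: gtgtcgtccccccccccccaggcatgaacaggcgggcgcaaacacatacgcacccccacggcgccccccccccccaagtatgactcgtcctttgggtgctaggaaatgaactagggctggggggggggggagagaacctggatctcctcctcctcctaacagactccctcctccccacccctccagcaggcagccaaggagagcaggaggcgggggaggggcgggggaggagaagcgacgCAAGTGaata
Satb1, chr17:51833291-51833540, minus strand: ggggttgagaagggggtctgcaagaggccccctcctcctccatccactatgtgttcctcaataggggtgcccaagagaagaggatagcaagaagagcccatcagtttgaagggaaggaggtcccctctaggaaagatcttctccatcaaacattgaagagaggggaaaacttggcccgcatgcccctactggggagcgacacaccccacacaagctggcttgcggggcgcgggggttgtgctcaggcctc

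The values are FPKM (fragments scaled by transcript length and library total), each divided by 1 factor per library so that the typical gene is at the same level in every library. The factors lay between 0.837 and 1.22. Relative to the FPKM as deposited they lowered CIA+THz by 0.28 against CIA and by 0.31 against Ctrl on the log2 scale, and CIA by 0.03 against Ctrl. Absolute depth is not known from FPKM. A rough estimate from the steps between low values put the relative depth, with the smallest library set to 1, at 1.00 to 1.11 for Ctrl, 1.02 to 1.28 for CIA and 1.36 to 1.88 for CIA+THz. At these depths 24.4% of the 1014 low genes used fell on whole steps within a tolerance of 1.5%, so the estimate rests on a minority of them. The samples are labelled as blood leukocytes, but a list of 5 red cell genes led by Alas2 summed to between 48010 and 104879 rescaled FPKM in a library, so red cell RNA was abundant. The 12 T cell markers were above 0 in each of the 9 libraries.

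Averaged over the 9 libraries, Ets1 had the highest level of the members at 91.7 rescaled FPKM, followed by Lef1 at 62.7, Tcf7 at 56.8 and Satb1 at 53.0. Foxo1 was at 20.9, Themis at 13.8, Bach2 at 7.29, Bcl11b at 5.85 and Id3 at 3.05. Because FPKM is per length, these levels can be set side by side. Some neighbours in this order did not differ beyond their spread: Lef1 exceeded Tcf7 in 8 of 9 libraries with overlapping ranges in all 3 groups, and Tcf7 exceeded Satb1 in 6 of 9, being the lower of the pair in the 3 Ctrl libraries. Bach2 exceeded Bcl11b in 8 of 9 libraries, and their ranges overlapped in Ctrl and CIA+THz. The other neighbours kept their order in 9 of 9 libraries.

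**Figure D1:**
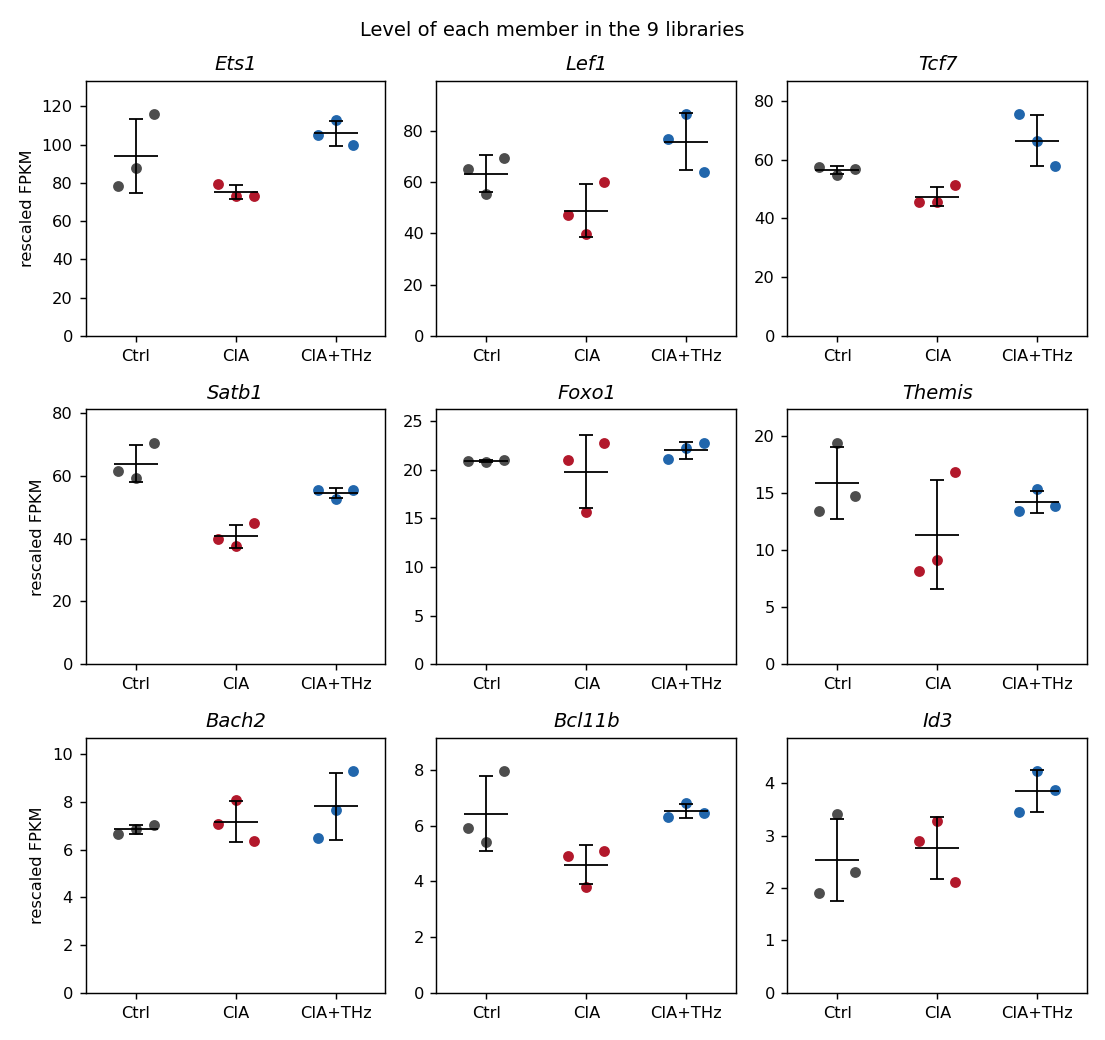
Rescaled FPKM (vertical axes, starting at 0) of the 9 members in the Ctrl, CIA and CIA+THz groups, where each point is 1 library (replicates 1 to 3 from left to right) and the bars show the mean and SD of 3 libraries. The mean of CIA is the lowest of the 3 groups in 7 of the 9 panels, all but those of Bach2 and Id3.

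Across the 3 groups, the members were compared to learn whether the level of any of them depended on arthritis or irradiation. Tcf7, Lef1, Satb1 and Ets1, the 4 most abundant members, passed an unadjusted p of 0.05 in the moderated F-test of limma. This test called 21.2% of all genes tested. Satb1 had the smallest p of the members (adjusted p = 0.0333 by limma with Benjamini-Hochberg adjustment) and was the only member with an adjusted p under 0.05, against 2.56% of all genes tested. The adjusted p was 0.105 for Tcf7, 0.120 for Lef1 and 0.146 for Ets1 in the same limma fit. For Bcl11b, Id3 and Themis it lay at 0.256, 0.351 and 0.373. Foxo1 (adjusted p = 0.727, limma) and Bach2 (adjusted p = 0.798, limma) had the least difference between groups beside their spread.

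The first of the HMG-box factors, Tcf7, lies on chromosome 11 of GRCm38 (52252371 to 52283014, minus strand). Its rescaled FPKM was 57.4, 54.8 and 57.0 in the Ctrl libraries, 45.5, 45.6 and 51.2 in CIA, and 75.4, 66.3 and 57.8 in CIA+THz. The 3 groups did not overlap, with CIA lowest and CIA+THz highest, and the lowest CIA+THz library lay just above the highest Ctrl library. The Ctrl libraries lay close together, at 56.4 ± 1.39 (SD, n = 3), and the CIA+THz libraries were more spread, at 66.5 ± 8.81.

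Lef1 is the other HMG-box factor and lies on chromosome 3 (131110471 to 131224356, plus strand). Ctrl libraries held 65.3, 55.2 and 69.5 rescaled FPKM, CIA libraries 47.0, 39.8 and 59.9, and CIA+THz libraries 77.0, 86.5 and 64.1. Here the highest CIA library lay above the lowest Ctrl library, while the 3 CIA+THz libraries lay above the 3 CIA libraries.

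Satb1, the chromatin organiser, lies on chromosome 17 (51736187 to 51833290, minus strand). It was at 61.6, 59.2 and 70.4 rescaled FPKM in Ctrl, at 39.8, 37.5 and 44.8 in CIA, and at 55.3, 52.7 and 55.3 in CIA+THz. The groups did not overlap, and their order differed from that of Tcf7: CIA was lowest, CIA+THz lay between, and Ctrl was highest.

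Ets1 lies on chromosome 9 (32636221 to 32757820, plus strand). It was at 78.5, 87.5 and 116 rescaled FPKM in Ctrl, at 79.6, 72.9 and 73.3 in CIA, and at 105, 113 and 99.6 in CIA+THz. The Ctrl libraries were spread over values of both other groups, which did not overlap with each other.

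Bcl11b, the T cell identity factor on chromosome 12 (107910403 to 108003602, minus strand), was at 5.92, 5.42 and 7.96 rescaled FPKM in Ctrl, at 4.92, 3.79 and 5.10 in CIA, and at 6.30, 6.80 and 6.45 in CIA+THz. The CIA libraries lay below the libraries of both other groups, which overlapped. Themis, the signalling protein of the T cell receptor on chromosome 10 (28668360 to 28883818, plus strand), was at 13.5, 19.4 and 14.7 in Ctrl, at 8.13, 9.09 and 16.8 in CIA, and at 13.4, 15.3 and 13.8 in CIA+THz. A pair of CIA libraries were low and the third was above the median of Ctrl, so the groups overlapped.

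Foxo1, Bach2 and Id3 did not separate CIA from Ctrl. Foxo1 (chromosome 3, 52268336 to 52353221, plus strand) was at 20.9, 20.8 and 21.0 rescaled FPKM in Ctrl, at 21.0, 15.6 and 22.7 in CIA, and at 21.0, 22.2 and 22.8 in CIA+THz. Replicate 2 of CIA was the only library of Foxo1 that stood below the others. Bach2 (chromosome 4, 32238804 to 32586108, plus strand) was at 6.66, 6.88 and 7.04 in Ctrl, at 7.10, 8.10 and 6.36 in CIA, and at 6.49, 7.67 and 9.29 in CIA+THz, with overlap between each pair of groups. Id3, the inhibitor of E proteins (chromosome 4, 136143497 to 136145755, plus strand), was at 1.90, 3.40 and 2.30 in Ctrl, at 2.90, 3.28 and 2.12 in CIA, and at 3.44, 4.23 and 3.88 in CIA+THz. Its CIA+THz libraries lay above the 6 others, and its Ctrl and CIA libraries overlapped.

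Arthritis was compared with health in the CIA and Ctrl libraries. The levels of 7 members were lower in CIA, and those of Bach2 and Id3 were higher. Of the 12382 genes tested, 6251 were lower and 6104 higher. The study's criterion for a pair of groups was an unadjusted p under 0.05 with an absolute log2 fold change above 0.67, and limma called 0 of the 9 members by it, where 4.26% of all genes tested were called lower and 4.78% higher. At an unadjusted p under 0.05 alone, 2 members were lower and 0 higher, beside 8.51% and 8.84% of all genes tested. No member had an adjusted p under 0.05, a limit that 0.153% of all genes tested passed. Satb1 was closest to the criterion, with a log2 fold change of -0.65 ± 0.12 (SE, n = 3 against 3; adjusted p = 0.0744, limma), or 1.56-fold lower. Tcf7 had a smaller difference of -0.25 ± 0.10 (SE; adjusted p = 0.274, limma). The CIA libraries of Tcf7, Satb1 and Bcl11b all lay below the Ctrl libraries, a pattern shown by 11.8% of all genes tested. Themis and Bcl11b had lower log2 values in CIA by -0.54 and -0.47, but their 95% intervals, -1.24 to 0.16 and -1.02 to 0.08, included 0. With a correction for GC content, the difference of Themis was -0.21.

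Replicate 3 of CIA held the highest CIA values of Tcf7, Lef1, Satb1, Foxo1, Bcl11b and Themis. Leaving it out therefore had to widen the gap of these members below Ctrl, and their calls without it follow from that choice. Without it, 4 members were lower at an unadjusted p under 0.05, beside 7.46% of all genes tested in that reduced fit. Satb1 (log2 fold change -0.72) and Themis (-0.86) then passed the criterion, as did 4.49% of all genes tested in the same direction. Without replicate 2 of Ctrl, which was the lowest Ctrl library of Satb1, Satb1 alone passed it, at -0.70, beside 3.97% of all genes tested. Leaving out each CIA or Ctrl library in turn gave 1 to 4 members at an unadjusted p under 0.05 and 0 to 2 by the criterion.

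The irradiated mice were compared with the other arthritic mice to see whether local irradiation went with a difference in blood. All 9 members had a higher level in CIA+THz than in CIA, by 0.11 to 0.64 on the log2 scale. Of the 12382 genes tested, 6553 were higher and 5798 lower. The smallest of these differences, that of Bach2, turned to -0.02 without replicate 3 of CIA+THz. An unadjusted p under 0.05 was found for 5 of the members, beside 5.90% of all genes tested that were higher and 7.33% that were lower at that limit. By the criterion limma called 0 of the 9, where 2.96% of all genes tested were called higher and 1.58% lower. No member passed an adjusted p of 0.05, and neither did any other gene (0%). The smallest p belonged to Ets1, with a log2 fold change of 0.49 ± 0.09 (SE; adjusted p = 0.188, limma). Lef1 had the largest difference, 0.64 ± 0.18 (SE; adjusted p = 0.257, limma), or 1.56-fold, just short of the limit of 0.67. Tcf7 was higher by 0.48 (adjusted p = 0.234), Satb1 by 0.42 (adjusted p = 0.210) and Bcl11b by 0.50 (adjusted p = 0.305) in the same limma fit. For Id3 the difference was 0.48 with a 95% interval from -0.07 to 1.03, for Themis 0.39 (-0.25 to 1.04; 0.20 with a correction for GC content), for Foxo1 0.17 (-0.20 to 0.54) and for Bach2 0.11 (-0.32 to 0.55).

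The CIA+THz libraries of Tcf7, Lef1, Satb1, Bcl11b, Ets1 and Id3 all lay above the CIA libraries, which 9.38% of all genes tested did. Without replicate 3 of CIA, Lef1 (0.80) and Themis (0.72) passed the criterion, with 4.06% of all genes tested higher by it, and without replicate 3 of CIA+THz, Lef1 (0.76) passed it, beside 2.37%. These were the highest CIA library of Lef1 and Themis and the lowest CIA+THz library of Lef1. Leaving them out therefore had to widen those differences. Leaving out each library in turn gave 0 to 2 members by the criterion.

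**Figure D2:**
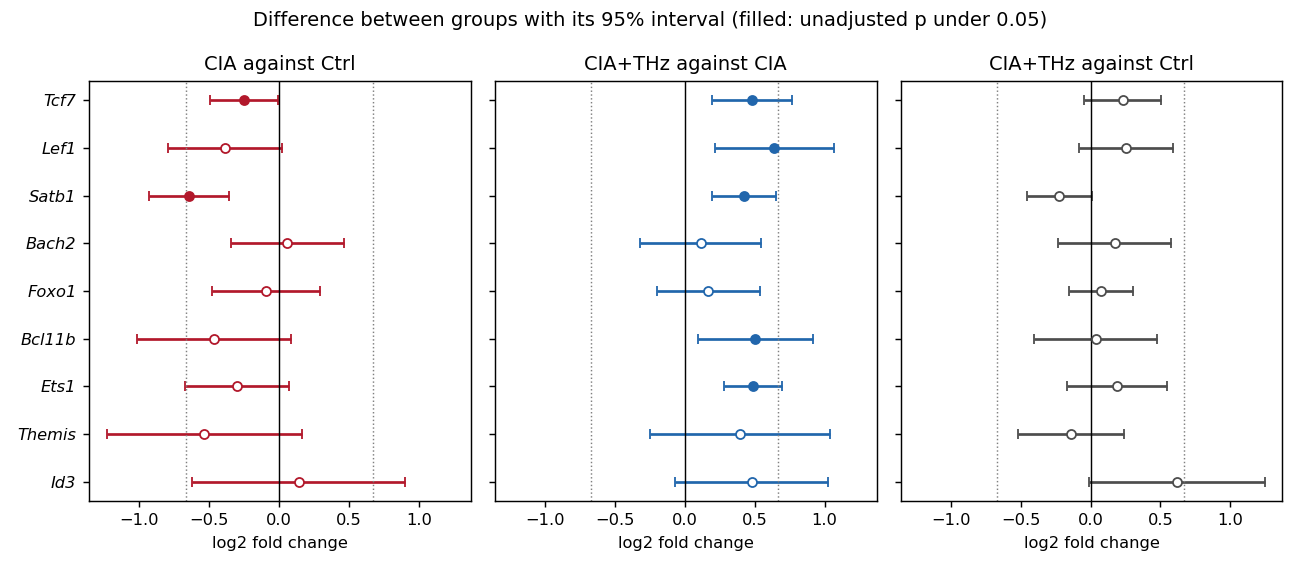
Log2 fold change (horizontal axis) of each member in 3 comparisons of groups, with the 95% interval from limma as a bar, filled points for an unadjusted p under 0.05 and dotted lines at 0.67 on either side of 0. Points of CIA against Ctrl lie mostly left of 0, those of CIA+THz against CIA all lie right of 0, and no point passes a dotted line.

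The irradiated mice were also compared with healthy ones, which asks how far their levels stood from those of mice without arthritis. In CIA+THz against Ctrl, 7 members had a higher level and Satb1 and Themis a lower one, while 6651 of the 12382 genes tested were higher and 5712 lower. By the criterion limma called 0 of the 9, where 4.64% of all genes tested were called higher and 3.21% lower. No member had an unadjusted p under 0.05 (8.39% of all genes tested were higher and 9.68% lower at that limit) or an adjusted one (0.105%). Id3 differed most, by 0.62 with a 95% interval from -0.01 to 1.25 (adjusted p = 0.284, limma), and without replicate 2 of Ctrl it passed the criterion at 0.84, beside 5.06% of all genes tested. That library held the highest Ctrl value of Id3, so leaving it out had to widen the difference. Leaving out each library in turn gave 0 to 1 members by the criterion. Satb1 differed by -0.22 (-0.46 to 0.01) and Tcf7 by 0.23 (-0.04 to 0.50). Tcf7, Foxo1 and Id3 had the CIA+THz libraries above the Ctrl libraries, as did 11.9% of all genes tested, and Satb1 had them below, as did 12.0%. For Foxo1 that gap was narrow, since its lowest CIA+THz and highest Ctrl libraries both rounded to 21.0. The 3 comparisons share libraries, so their values are not independent of each other.

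The number of calls rested on the scaling of the libraries. With the FPKM as deposited, 6 members passed the criterion in CIA+THz against CIA, namely Tcf7 (0.76), Lef1 (0.92), Satb1 (0.70), Bcl11b (0.78), Ets1 (0.77) and Id3 (0.75), and Id3 (0.92) passed it in CIA+THz against Ctrl. The share of all genes called higher was larger as well under that setting: 9.09% were called higher and 0.533% lower in CIA+THz against CIA, and 12.9% higher and 0.969% lower in CIA+THz against Ctrl. The difference of Satb1 from Ctrl changed its sign, from -0.22 to 0.08, and that of Themis from -0.14 to 0.16. Across the 3 groups, 7 members then had an unadjusted p under 0.05, beside 26.7% of all genes tested.

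**Figure D3:**
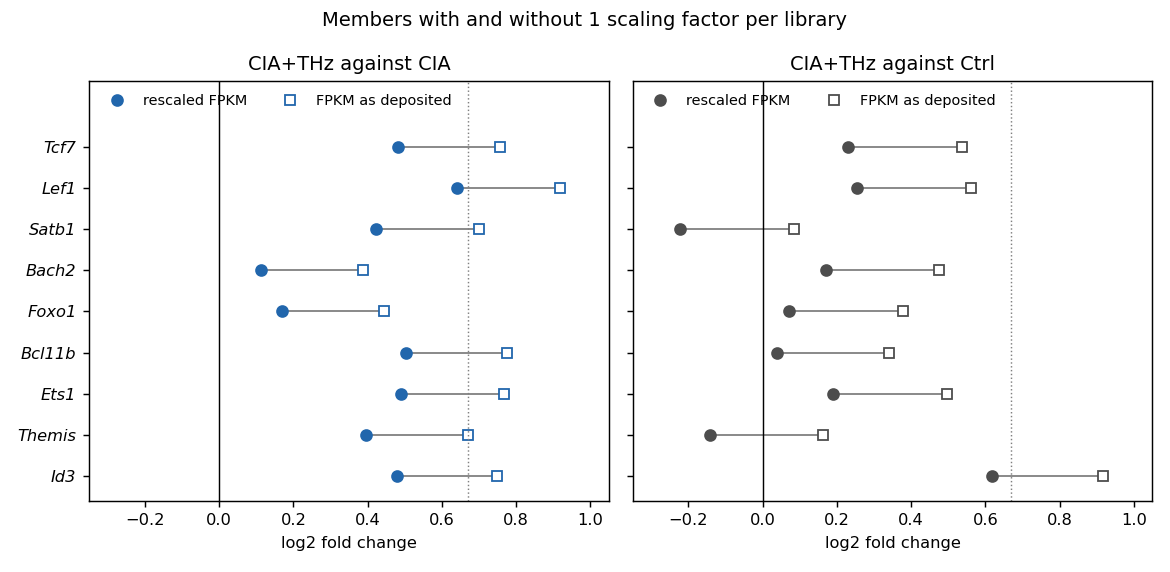
Log2 fold change (horizontal axis) of each member in CIA+THz against CIA and in CIA+THz against Ctrl, from rescaled FPKM (filled circles) and from the FPKM as deposited (open squares), with the dotted line at 0.67. Each square lies about the same distance to the right of its circle, and 6 squares but no circle pass the line in CIA+THz against CIA.

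In whole blood, a smaller share of T cells among all cells and less RNA per T cell cannot be told apart. The members were therefore set beside T cell markers of the same libraries. FPKM gives shares of the RNA and not numbers of cells. The paper reports higher blood counts of lymphocytes, neutrophils and monocytes in CIA than in control mice, and a smaller rise in CIA+THz. It gives no count of T cells in blood. For the spleen it reports a larger share of CD4+ T cells in CIA that was reduced after irradiation. There it also reports fewer CD62L+ naive T cells in CIA, which irradiation left unchanged. The summed level of 12 T cell genes, among them Cd3e, Cd3d, Cd3g, Cd2, Cd5 and Lck, was 411 to 478 rescaled FPKM in Ctrl, 349 to 383 in CIA and 419 to 566 in CIA+THz. CIA was therefore lowest for the markers too. Their median log2 fold change was -0.28 in CIA against Ctrl and 0.30 in CIA+THz against CIA, where the medians of the members were -0.30 and 0.48 and those of all genes tested -0.01 and 0.03. In CIA+THz against CIA, 12 of the 12 markers were higher, 6 of them at an unadjusted p under 0.05, and 1, Cd5, passed the criterion. Of all genes tested, 5.90% were higher at that p and 2.96% by the criterion. In CIA against Ctrl, 11 of the 12 markers were lower, 3 of them at an unadjusted p under 0.05, and 0 passed the criterion. There, 8.51% of all genes tested were lower at that p.

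When the mean log2 level of the 12 markers was subtracted from each member within its library, a value that does not depend on the scaling of libraries, little separation remained. Of 27 comparisons (9 members in 3 pairs of groups), the groups did not overlap in 1, which was Bach2 in CIA against Ctrl. Bach2 was higher relative to the markers by 0.34 (p = 0.1, exact permutation test, two-sided, the smallest p that 3 against 3 libraries allow), while its own level was about the same in both groups. In the same comparison 25.1% of all genes tested lay above without overlap, so Bach2 shared this with many genes. No member lay above without overlap in CIA+THz against CIA or against Ctrl, where 1.73% and 7.96% of all genes tested did. The relative difference of Lef1 between CIA+THz and CIA was 0.32 (exact permutation p = 0.3) and that of Ets1 was 0.17 (exact permutation p = 0.3). Relative to the markers, Satb1 differed by -0.36 in CIA against Ctrl (exact permutation p = 0.2). A p that this design cannot bring under 0.1 does not show that the members and the markers moved alike.

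**Figure D4:**
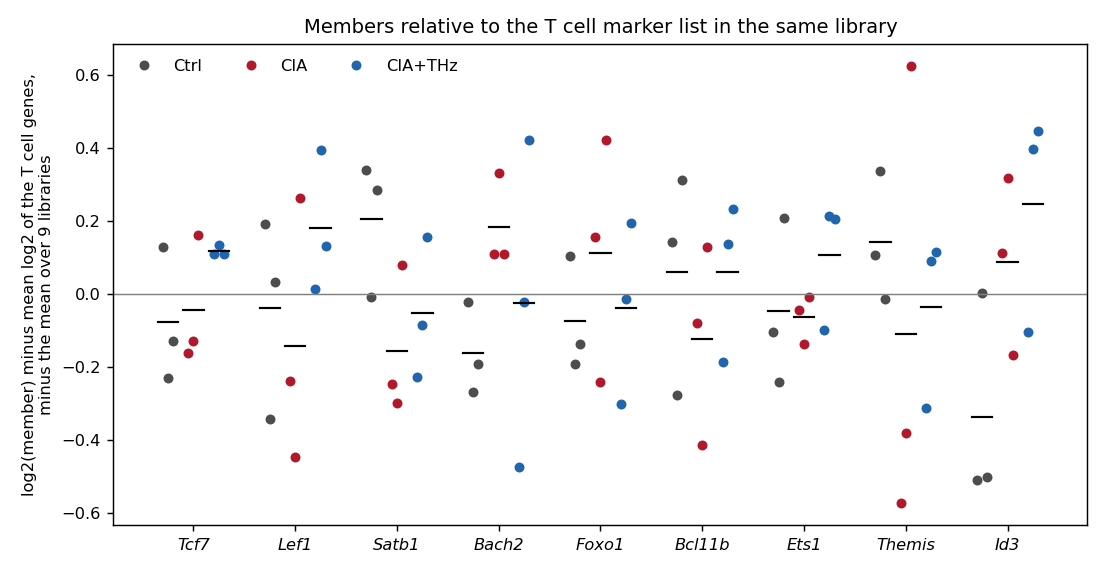
Log2 level of each member minus the mean log2 level of 12 T cell genes in the same library (vertical axis), centred on the member's mean over 9 libraries, where points are libraries and bars are means of 3. The groups overlap for each member in each pair of groups, except for Bach2, whose CIA points lie above its Ctrl points.

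Other cell types also moved between the groups, and their part in the members' values was not tested. The B cell list (10 genes, all above 0 in every library) summed to 508 to 619 rescaled FPKM in Ctrl, 559 to 698 in CIA and 658 to 850 in CIA+THz. In CIA+THz against CIA, 10 of 10 genes were higher, 3 of them at an unadjusted p under 0.05, with a median log2 fold change of 0.35. Of all genes tested, 5.90% were higher at that limit. The 6 NK cell genes tested summed to 154 to 203 in Ctrl, 62.8 to 140 in CIA and 104 to 163 in CIA+THz, with medians of -0.999 in CIA against Ctrl and 0.61 in CIA+THz against CIA, and Klra8 was at 0 in each of the 9 libraries. Neutrophil genes (11) summed to between 12699 and 21409 in Ctrl, 14895 and 19606 in CIA and 10917 and 12412 in CIA+THz, where each of the 11 was lower than in CIA. S100a9, at 11653 over the 9 libraries, dominates this sum. In CIA against Ctrl, 6 of the 11 were higher and 5 lower. Camp, Ltf and Ngp were higher there by 4.86, 4.08 and 3.02 on the log2 scale (adjusted p = 0.0400, 0.0400 and 0.0627, limma). Monocyte genes (8) summed to 591 to 611, 871 to 986 and 714 to 762 in the same order of groups. The red cell sum, which Alas2 dominates, was 69927 to 104879 in Ctrl, 88184 to 99032 in CIA and 48010 to 66224 in CIA+THz, so CIA+THz lay below both other groups, although the median over the 5 genes was -0.02 in CIA+THz against CIA and -0.69 in CIA against Ctrl. Plasma cell genes summed to 109 to 133 in Ctrl, 51.1 to 59.7 in CIA and 46.9 to 52.1 in CIA+THz, with medians of -0.92 in CIA against Ctrl and 0.23 in CIA+THz against CIA. The median in CIA+THz against CIA was -0.44 for platelet genes (3143 to 4815 in any library) and -0.13 for 10 ubiquitous genes (2535 to 3520).

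Naive T cells also carry homing receptors and quiescence genes, and 17 such genes were listed from general knowledge. In CIA against Ctrl, 4 of the 17 fell by the criterion and 0 rose, the median being -0.12. Of all genes tested, 4.26% were called lower and 4.78% higher. Il7r, the receptor chain for the survival cytokine interleukin-7, was at 58.2, 64.6 and 58.6 rescaled FPKM in Ctrl, at 31.4, 33.9 and 33.8 in CIA and at 54.9, 53.8 and 48.7 in CIA+THz. It fell by 0.87 on the log2 scale in CIA (adjusted p = 0.0460, limma) and was the only gene of this list with an adjusted p under 0.05. In CIA+THz it was higher than in CIA by 0.67 (adjusted p = 0.167, limma), fractionally short of the limit. Trib2, a pseudokinase, was at 18.5 ± 1.82 (SD, n = 3) in Ctrl, at 10.9 ± 2.10 in CIA and at 16.2 ± 1.00 in CIA+THz, and it fell by 0.77 in CIA (adjusted p = 0.117, limma). Txk, a kinase of T cell receptor signalling, fell by 0.74 in CIA (adjusted p = 0.199, limma).

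Tob1, an inhibitor of proliferation, fell in CIA by 0.82 (adjusted p = 0.0627, limma) and was at a like level in CIA+THz, since it was at 25.6, 23.6 and 25.6 rescaled FPKM in Ctrl, at 13.5, 15.7 and 13.2 in CIA and at 13.1, 15.6 and 14.6 in CIA+THz. In CIA+THz against CIA, 0 of the 17 genes passed the criterion in either direction by limma. Of the 17, 12 were higher and 5 lower. Their median log2 fold change was 0.07, where that of all genes tested was 0.03 and that of the members 0.48. At an unadjusted p under 0.05, 7 were higher (Ccr7, Il7r, S1pr1, Foxp1, Igfbp4, Txk and Trib2) and 1 was lower (Slfn2). Of all genes tested, 5.90% were higher and 7.33% lower at that limit. Ccr7, the receptor that guides naive T cells into lymph nodes, was at 129 ± 8.25 in Ctrl, at 130 ± 11.4 in CIA and at 171 ± 16.1 in CIA+THz. In CIA+THz against Ctrl, Tob1 fell by 0.79 and no other gene of the list passed the criterion, by which 3.21% of all genes tested were lower. Among the most abundant genes, the growth inhibitor Btg1 (1171 rescaled FPKM over 9 libraries) and the transcription factor Klf2 (144) differed by less than 0.67 in each pair of groups and had no unadjusted p under 0.05.

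The members were also set beside 14 factors of activated and effector lymphocytes, and 1 of them passed the criterion in a pair of groups. Batf, a factor of effector T cell differentiation, was at 6.38, 9.51 and 8.04 rescaled FPKM in Ctrl, at 12.3, 9.72 and 10.7 in CIA and at 9.05, 7.40 and 4.52 in CIA+THz. It fell by 0.68 in CIA+THz against CIA (adjusted p = 0.347, limma), where 1.58% of all genes tested were called lower. Replicate 3 of CIA+THz was the lowest library. The median log2 fold change of the 14 was -0.31 between CIA and Ctrl, 0.10 between CIA+THz and CIA, and -0.22 between CIA+THz and Ctrl. Zeb2, Id2 and Batf were the most abundant of the list, at 41.7, 12.1 and 8.62 rescaled FPKM. The low end held Egr2, which was at 0 in 4 libraries.

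The members have close relatives with other expression ranges, and 10 paralogues were tested. Tcf7l1 was at 0 in 2 libraries. Foxo4, a relative of Foxo1, fell in CIA against Ctrl by 0.71 (adjusted p = 0.180, limma), from 40.2, 50.6 and 33.3 rescaled FPKM in Ctrl to 29.7, 19.3 and 26.8 in CIA, while Foxo1 itself differed by -0.10. Ets2, a relative of Ets1, fell in CIA+THz against Ctrl by 0.71 (adjusted p = 0.0709, limma), from 17.7 ± 0.902 to 10.8 ± 0.564 (SD, n = 3), while Ets1 was higher by 0.19. Bach1 (37.7 rescaled FPKM), Themis2 (31.9) and Foxo4 (31.4) were the most abundant paralogues, and Bach1 and Themis2 passed the criterion in 0 of the 3 pairs of groups, with no unadjusted p under 0.05 by limma. The median over the paralogues was -0.10 in CIA+THz against CIA, where the median of the members was 0.48. These medians are descriptions, and the difference between the lists was not tested.

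**Figure D5:**
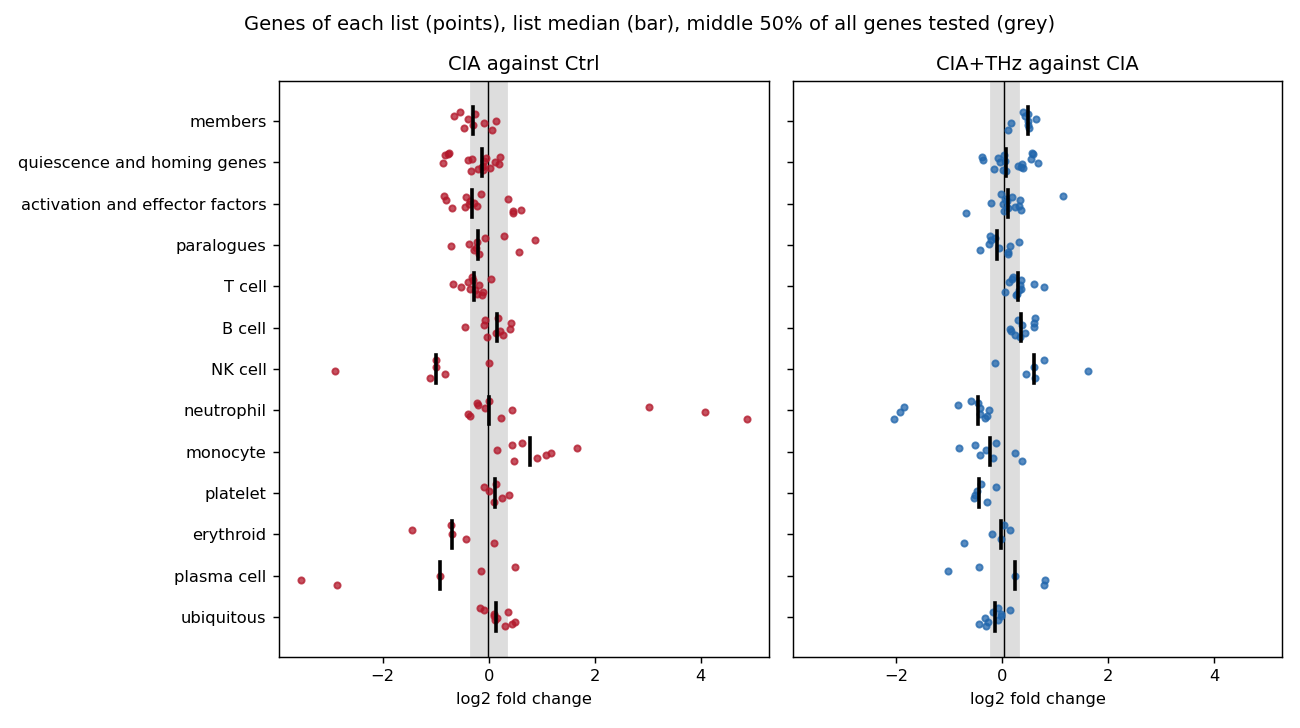
Log2 fold change (horizontal axis) of the genes of 13 lists in CIA against Ctrl and in CIA+THz against CIA, where points are genes, black bars are list medians, the grey band holds the middle 50% of all genes tested and the line is their median. The median of the members is at -0.30 and 0.48, the T cell median at -0.28 and 0.30, and the neutrophil median at 0.00 and -0.47.

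The genes whose pattern over the 9 libraries was most like that of a member were found by the root mean square difference of log2 levels centred per gene, among 9766 genes with a mean of at least 1. For Tcf7 they were Slc35f5 (0.092) and S1pr1 (0.096), the receptor by which lymphocytes leave lymph nodes, which was itself on the list of homing genes. For Lef1 they were Usp38 (0.13) and Tnfrsf18 (0.13), and for Ets1 they were Ikzf3 (0.085), a lymphocyte factor, and Agap2 (0.091). Satb1 was nearest to Srsf7 (0.089), Bcl11b to Tubgcp3 (0.084) and Adcy7 (0.10), and Foxo1 to Eif3a (0.051) and Efr3a (0.078). Bach2 was nearest to Hip1r (0.092) and Ubqln1 (0.096). Themis (Hdac2 at 0.15 and Zfp983 at 0.16) and Id3 (Det1 at 0.15 and Phgdh at 0.16) had larger differences from their neighbours. Their own spread over the 9 libraries was also larger, at 0.37 for each, against 0.16 for Bach2 and 0.22 for Tcf7. The larger differences therefore do not show less similar patterns.

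Among themselves, Tcf7 and Lef1 were each other's nearest member, at 0.16, and so were Bcl11b and Ets1, at 0.14. In the order of all 9766 genes, Tcf7 was the 9th nearest to Lef1, but Lef1 was only the 76th nearest to Tcf7. Ets1 was the 15th nearest to Bcl11b, and Bcl11b the 23rd nearest to Ets1. The member nearest to Bach2, Foxo1, was at 0.24 and ranked 1612th. Themis and Id3 lay further from their nearest members, at 0.28 (Satb1, ranked 236th) and 0.30 (Bach2, ranked 320th). For Foxo1 the nearest was Tcf7, at 0.21 and ranked 890th. Bach2 and Foxo1 had a small spread of their own, 0.16 and 0.15, so a high rank number there does not measure distance alone.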

How the data were processed

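The values are FPKM as the authors deposited them, in a matrix of gene symbols by libraries. The submitters' processing notes name bcl2fastq 2.0, HISAT2, StringTie, DESeq2 and the build mm10, with no order. Annotation, strand and filters are not given in the sources used here. FPKM holds no counts, so limma was used on a log scale. Groups came from the sample labels, which pair no animals. The labels do not say which mouse gave each library, so p-values measure the spread between these libraries.

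Libraries were brought to a common scale by median-of-ratios factors, taken from the 10312 genes detected in each of the 9 libraries. A gene entered the tests when its rescaled FPKM averaged 0.1 or more. The tests used limma 3.58.1 (lmFit, eBayes with trend, R 4.3.3) on log2(rescaled FPKM + 0.1), a scale that understates the change of low genes. The 3 groups were fitted together for the F-test, and each pair on its own 6 libraries. Fold changes are differences on this scale, and intervals are 95% intervals. The criterion was that of the study. Adjusted p-values run over all genes tested. Members relative to T cell markers were compared by an exact permutation test over libraries.

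Members and gene lists were chosen with earlier results of these data known. Named were the 9 members, listed genes of naive, effector or paralogue type past the criterion or among the 3 most abundant of their list, and the 2 genes most like each member. Genes at an unadjusted p under 0.05 (Ccr7, S1pr1, Foxp1, Igfbp4, Slfn2), the markers Cd5, Jchain and Xbp1, and Egr2 and Tcf7l1, at 0 in some libraries, were named after their values were seen. Some genes that this rule names are not reported here. Coordinates are those of GENCODE vM21 on GRCm38, the same build as mm10, matched by symbol. The scripts (Python 3.11.15, matplotlib 3.10.9) were tested on simulated data. The alternatives tried were other scalings, pseudocounts, filters and fits, a replicate block, a correction for GC content and leaving out each library.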

Additional observations from a re-analysis of the deposited data

How the results depend on the processing

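Counts of members are given for the 3 groups together and for the pairs. With the FPKM as deposited they were 7 of 9 across the 3 groups (4 with rescaling), 6 by the criterion in CIA+THz against CIA (0) and 1 in CIA+THz against Ctrl (0), and at an unadjusted p alone 1 in CIA against Ctrl (2) and 6 in CIA+THz against Ctrl (0). The adjusted p left 1 across the 3 groups and 0 of the 2 and 5 members with an unadjusted p under 0.05 in CIA against Ctrl and CIA+THz against CIA. Without the limit on the fold change, 2 and 5 were called there. At p alone, CIA against Ctrl gave 1 with a pseudocount of 1, a minimum mean of 1 or no trend, and CIA+THz against Ctrl gave 1 with a minimum mean of 1, no filter or no trend. Other settings kept each count within 1.5 times. The counts at p alone here, and the ranges over libraries left out below, are not set beside shares of all genes. They show how the counts depend on the settings and do not set the members against other genes.

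Leaving out each library gave 3 to 6 members across the 3 groups, 0 to 2, 0 to 2 and 0 to 1 by the criterion in CIA against Ctrl, CIA+THz against CIA and CIA+THz against Ctrl, and 1 to 4, 4 to 6 and 0 to 2 at p alone. Relative to the T cell markers, members without overlap numbered 1 to 4, 0 to 4 and 0 to 2, fewer libraries making separation easier. Differences near 0 changed sign. In CIA against Ctrl these were Bach2 and Foxo1 without replicate 2 of CIA (ranges over the libraries left out, -0.029 to 0.14 and -0.21 to 0.064) and Id3 without replicate 1 of Ctrl (-0.039 to 0.36) or with a correction for GC content (-0.052), which was chosen with earlier results known. In CIA+THz against CIA it was Bach2 without replicate 3 of CIA+THz (-0.018 to 0.24). In CIA+THz against Ctrl they were Satb1 and Themis as deposited (0.084 and 0.16), Themis without replicate 2 of Ctrl (-0.25 to 0.011) and Bcl11b without replicate 1 or 2 of Ctrl (-0.074 to 0.20) or with the GC correction (-0.015). The GC correction moved Themis, the member of lowest GC content, from -0.54 to -0.21 in CIA against Ctrl and from 0.39 to 0.20 in CIA+THz against CIA. The cause was not tested.

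The replicate numbers only name libraries: deviations of same-numbered libraries correlated between -0.05 and 0.03, and 3 of 9 libraries correlated best with their own number. With the replicate block, 4 members were called across the 3 groups, 0 by the criterion in each pair, and 2, 4 and 0 at p alone, so the block moved no count by over 1.5 times. FPKM without counts limits what can be said of Id3, the lowest member.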
